A study of Mus musculus with 14 samples.

Results

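The mouse zinc finger genes named Zfp with a number of 600 or above were chosen by name alone, as protein-coding genes on the autosomes of the RefSeq annotation of mm10. The rule gave 181 of 20665 genes, 11 of them with a letter after the number. A peak was given to a gene when it overlapped the gene or lay within 1 kb of either end, which gave 347 of 57289 peaks (0.606%), each 700 bp wide. Of these peaks, 34 were also taken by another gene. Accessibility was read by bulk ATAC-seq, in which the transposase Tn5 cuts open chromatin, in long-term haematopoietic stem cells (HSCs) sorted from mouse bone marrow as Lin- Sca1+ cKit+ CD34- Flt3-. The 14 libraries came from C57BL/6 mice in 3 groups: aged cells (over 80 weeks) given Rhosin at 100 µM (aged Ri, n = 5), aged control cells (over 80 weeks, n = 5) and young control cells (10 to 16 weeks, n = 4). Rhosin is a small molecule that keeps guanine nucleotide exchange factors from activating RhoA, a small GTPase that controls actomyosin. Cells of all 3 groups spent 16 h outside the animal, in HBSS with 10% serum at 37 °C, 3% oxygen and 5% carbon dioxide, so the young and aged groups are cultured controls and not freshly lysed cells. The series calls its replicates biological but does not say how many animals gave each library. Each of the 3 sequencing batches held all 3 groups.

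Most genes of this name encode proteins with tandem C2H2 zinc fingers that bind DNA, many of them with a KRAB domain. A KRAB domain recruits the co-repressor TRIM28 (KAP1), and with it the histone H3K9 methyltransferase SETDB1, HP1 proteins and histone deacetylases. In mouse embryonic cells such proteins silence endogenous retroviruses, and their own genes, which spread by tandem duplication, lie in clusters that carry the same repressive marks. A smaller number of genes with these names have no KRAB domain and act in other ways. No protein sequence was used here, so the members were not divided by domain.

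Libraries held 1255878 to 3176246 counts in peaks in aged Ri, 1153199 to 2705576 in aged and 765533 to 2219775 in young cells. The member peaks took 0.683% ± 0.025 of all counts in aged Ri (SD, n = 5), 0.753% ± 0.062 in aged (SD, n = 5) and 0.748% ± 0.038 in young libraries (SD, n = 4). Peaks at annotated gene ends took 42.5% ± 4.5 of all counts in aged Ri, 42.6% ± 4.4 in aged and 48.7% ± 1.9 in young libraries (SD). All 10 HSC markers had a peak, as had 5 of 5 megakaryocyte and platelet, 4 of 6 erythroid, 4 of 6 myeloid, 3 of 4 B, 3 of 6 T and NK, 3 of 5 endothelial and stromal and 1 of 6 non-haematopoietic markers. Levels ran from 13.3 to 17.7 CPM per peak (counts per library total, TMM-scaled) in aged Ri, 13.4 to 18.3 in aged and 9.74 to 14.2 in young libraries at HSC markers. At the 3 T and NK markers with a peak they ran from 18.6 to 31.5 CPM per peak in aged Ri, 14.97 to 39.6 in aged and 20.6 to 38.7 in young libraries, and Cd3e, Cd8a and Ncr1 had no peak. The part of other cells in the results was not tested. In bulk libraries, fewer cells of a type and less open chromatin per cell cannot be told apart.

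Most of the zinc finger genes were open in HSCs, at a single place. Of 181 members, 157 (86.7%) had at least 1 peak, compared with 95.6% of the 205 Zfp genes numbered under 600 and 73.0% of all autosomal protein-coding genes. A single peak was found in 105 members (58.0%), and 52 had 2 or more. Of 137 members with a peak and a start site in the promoter table, 127 (92.7%) had one within 1 kb of a start, against 86.6% of all such genes. The centres of the 134 start-site peaks lay a median of 57.5 bp downstream of the start. All 157 members with a peak passed the filter on low counts, so no member was lost there.

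The 24 members without a peak included Zfp750, whose human counterpart drives epidermal differentiation, and Zfp804a, whose human counterpart is a schizophrenia risk gene. A group of genes on chromosome 2 with alike promoter windows was almost wholly without peaks: of 9 members between 175372034 and 178078425, only Zfp972 had one. Their promoter windows, taken from 250 bases before to 50 after the start, were 77.7% to 100% identical to the closest member on the same chromosome. The lowest of these, 77.7%, was that of Zfp972. Windows were compared only within a chromosome, so this identity also depends on how many members a chromosome holds. Over the 155 members with another window on their chromosome, the closest identity had a median of 84.7% in the 29 without a peak at the start. It was 57.0% in the 126 with one. It reached 80% or more in 15 (51.7%) of those without and 14 (11.1%) of those with a peak. The 15 were 8 of the chromosome 2 genes, Zfp979, Zfp980, Zfp985, Zfp987 and Zfp988 of a chromosome 4 cluster described below, and Zfp936 and Zfp977 on chromosome 7. The rest of the 29 had 51.0% to 67.0%. Copies within a stretch are not independent, so the contrast rests mainly on the chromosome 2 and chromosome 4 stretches. How reads that map to several copies were counted is not given in the sources used here, so counts at near-identical copies are uncertain, and an absent peak there is not evidence of closed chromatin. Windows of Zfp966 and Zfp967 were 100% identical, as were those of Zfp955a and Zfp955b.

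**Figure D1:**
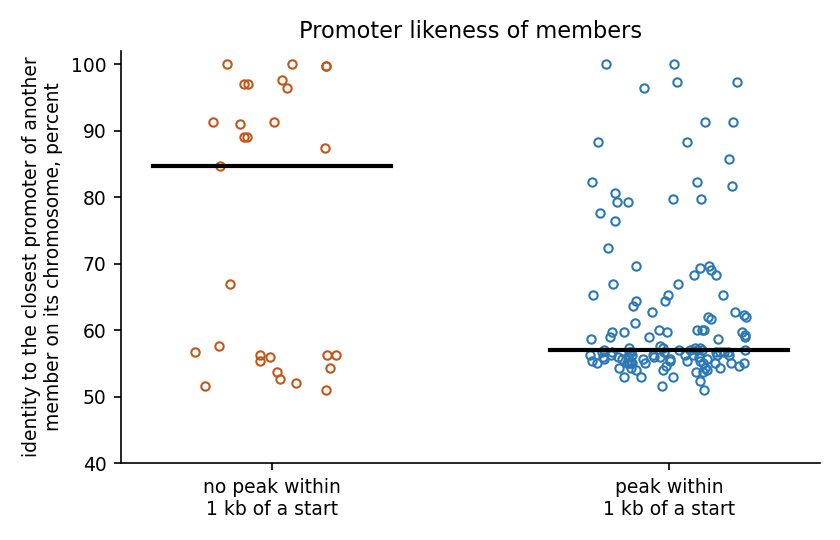
Identity of each member's promoter window to the closest window of another member on the same chromosome (percent), for 29 members with no peak within 1 kb of a start and 126 with one; each circle is 1 gene and bars are medians. The medians are 84.7% without and 57.0% with a peak at the start. Most genes at 80% or more without such a peak are copies from 1 stretch of chromosome 2 or from the chromosome 4 cluster.

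Promoter windows of 158 members were read from RefSeq (GRCm38.p6, the assembly called mm10). They held a median of 10 CpG, fewer than the 14 of all 16457 genes in the table, and 53.3% GC against 56.7%. The CCAAT box bound by NF-Y (CCAAT or ATTGG) was in 59.5% of member windows and 39.0% of all windows. The ETS motif CCGGAAG (or CTTCCGG) was in 17.7% and 12.3%, the Sp/KLF motif GGGCGG (or CCGCCC) in 43.7% and 47.3%, and the CREB motif TGACGTCA in 1.90% and 2.42%. The NRF1 motif, searched as 1 fixed word, was in 2.53% of member and 1.36% of all windows, that of ZFP143 in 1.27% and 0.480%, and that of YY1 in 0% and 0.990%. The ETS motif was in 14.96% of the 127 member windows with a start-site peak and 29.03% of the 31 without. The CCAAT box was in 56.69% and 70.97% of them, and the Sp/KLF motif in 47.24% and 29.03%. Windows of near-identical copies were each counted, so these shares do not come from independent windows. Both strands were searched. A match is a description of the letters only. The windows below are those of Zfp869, the most open member, of Zfp688, Zfp746 and Zfp948, whose start-site peaks changed, and of Zfp966, one of the chromosome 2 copies without a peak. Capitals mark motif matches, 4 of NF-Y in Zfp869, 1 of ETS in Zfp688, 1 of Sp/KLF in Zfp746, none in Zfp948, and 2 of NF-Y and 1 of ETS in Zfp966. They lie at chr8:69716853-69717152 on the minus strand (Zfp869), chr7:127421985-127422284 on the minus strand (Zfp688), chr6:48086544-48086843 on the minus strand (Zfp746), chr17:21566728-21567027 on the plus strand (Zfp948) and chr2:175931051-175931350 on the minus strand (Zfp966).
Zfp869: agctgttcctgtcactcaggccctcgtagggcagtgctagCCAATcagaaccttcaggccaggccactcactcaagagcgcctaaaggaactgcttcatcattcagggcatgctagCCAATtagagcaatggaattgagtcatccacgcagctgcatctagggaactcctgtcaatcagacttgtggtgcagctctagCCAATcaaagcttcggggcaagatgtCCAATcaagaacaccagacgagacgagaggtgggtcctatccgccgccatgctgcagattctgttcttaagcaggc
Zfp688: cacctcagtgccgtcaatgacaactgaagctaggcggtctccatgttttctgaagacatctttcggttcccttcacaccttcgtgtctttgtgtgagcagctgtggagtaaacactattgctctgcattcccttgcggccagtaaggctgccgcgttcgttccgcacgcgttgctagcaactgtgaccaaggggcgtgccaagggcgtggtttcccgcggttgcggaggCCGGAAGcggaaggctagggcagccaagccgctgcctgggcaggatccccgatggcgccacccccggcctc
Zfp746: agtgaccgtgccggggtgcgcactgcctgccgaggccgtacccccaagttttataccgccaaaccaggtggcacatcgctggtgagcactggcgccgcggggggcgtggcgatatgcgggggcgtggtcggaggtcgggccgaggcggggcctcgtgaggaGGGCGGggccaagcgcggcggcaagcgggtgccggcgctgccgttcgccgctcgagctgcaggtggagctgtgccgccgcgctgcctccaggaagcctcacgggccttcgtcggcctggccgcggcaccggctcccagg
Zfp948: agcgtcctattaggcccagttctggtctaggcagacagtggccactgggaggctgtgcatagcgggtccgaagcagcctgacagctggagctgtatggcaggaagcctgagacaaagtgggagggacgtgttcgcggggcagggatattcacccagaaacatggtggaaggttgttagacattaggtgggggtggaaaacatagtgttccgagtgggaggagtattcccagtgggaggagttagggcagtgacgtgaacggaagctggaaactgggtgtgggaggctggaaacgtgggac
Zfp966: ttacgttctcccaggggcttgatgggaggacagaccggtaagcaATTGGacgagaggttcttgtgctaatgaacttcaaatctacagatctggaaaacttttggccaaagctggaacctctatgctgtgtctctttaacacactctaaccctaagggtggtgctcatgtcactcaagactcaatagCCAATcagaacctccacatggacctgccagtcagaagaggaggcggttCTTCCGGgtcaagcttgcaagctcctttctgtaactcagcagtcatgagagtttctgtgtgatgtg

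Zfp869 on chromosome 8 had the highest level per peak of any member, averaging 139 CPM over the 14 libraries at its start site (CPM, each count divided by the TMM-scaled total of its library). It held 98.4, 152, 153, 168 and 113 CPM in aged Ri 1 to 5, 124, 134, 162, 169 and 157 CPM in aged 1 to 5, and 130, 118, 145 and 126 CPM in young 1 to 4, and the 3 groups overlapped. Next came Zfp868 at 91.1 CPM, which lies in the same cluster on chromosome 8, then Zfp865 at 77.3, Zfp866 at 75.5 and Zfp617 at 75.2 CPM per peak. Zfp607b (70.3), Zfp959 (69.5), Zfp788 (67.9), Zfp706 (67.4) and Zfp672 (65.8 CPM per peak) completed the 10 highest. The lowest were Zfp652, whose human counterpart works with the co-repressor CBFA2T3, at 5.12 CPM per peak, Zfp663 (6.06), Zfp804b (6.43), Zfp781 (6.61) and Zfp936 (6.73). Across the 157 members the median was 21.8 CPM per peak, against 22.7 for 196 Zfp genes under 600 and 18.9 for 15091 genes with a peak.

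**Figure D2:**
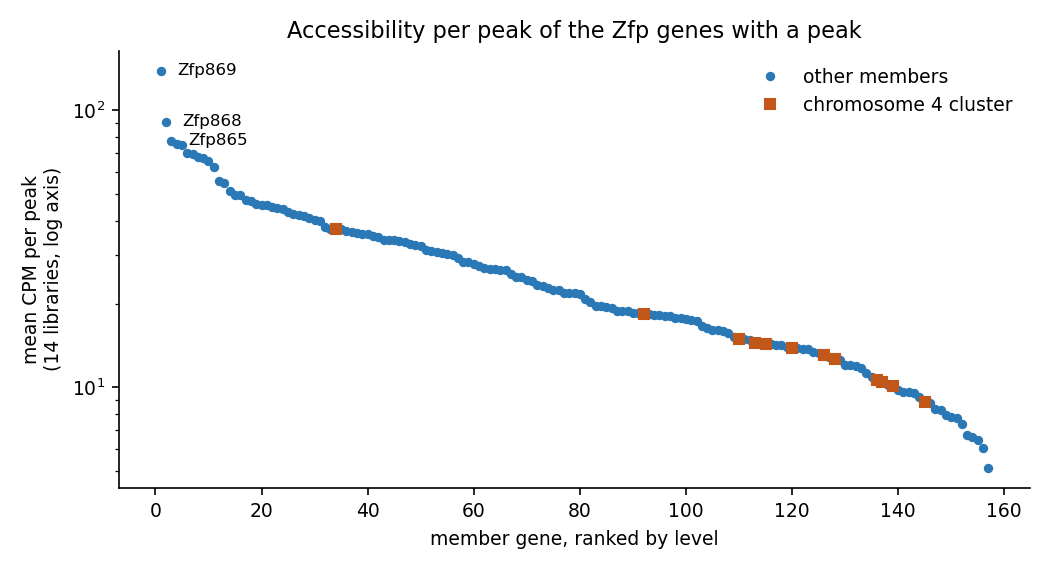
Mean CPM per peak over all 14 libraries (log axis) of the 157 members with a peak, ranked; squares are the 12 genes of the chromosome 4 cluster with a peak. Levels run from 139 CPM at Zfp869 to 5.12 CPM at Zfp652, and the squares have a median of 13.5 CPM.

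Members with a known role held the following levels per peak in the 3 groups. Zfp809, which recognises the proline primer binding site of murine retroviruses, had 46.9 ± 6.6 CPM in aged Ri (SD, n = 5), 47.0 ± 6.8 in aged (SD, n = 5) and 40.1 ± 7.4 in young cells (SD, n = 4). Zfp932, a repressor of endogenous retroviruses in mouse embryonic stem cells, had 34.9 ± 7.3 CPM in aged Ri, 31.7 ± 5.3 in aged and 25.6 ± 1.4 in young cells (SD). Zfp708, a repressor of RMER19B elements in the mouse, had 33.8 ± 6.8, 36.5 ± 10.4 and 40.03 ± 8.65 CPM in aged Ri, aged and young cells (SD). None of these 3 genes passed in any comparison (edgeR adjusted p of 0.119 or more). The same held for Zfp638, whose human counterpart silences unintegrated retroviral DNA, Zfp644, a partner of the G9a and GLP methyltransferases, Zfp687, whose human counterpart is mutated in Paget disease of bone, and Zfp703, whose human counterpart is amplified in luminal breast cancer, with log2 fold changes of -0.31 to 0.09 in the 3 comparisons. Zfp608 had 15.4, 14.9 and 14.4 CPM per peak over 16 peaks in aged Ri, aged and young cells, Zfp609, which guides migration of cortical neurons with the Integrator complex, 9.01, 10.0 and 10.4 over 4 peaks, and Zfp830 36.9, 42.0 and 47.2 CPM.

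Members in clusters made up 77 of the 181, in 8 runs of 5 or more genes with gaps of at most 500 kb. In 7 of these a gene had at most 3 peaks. The exception was a run of 15 genes on chromosome 4 (145510759 to 147849126), which held 99 of the 347 member peaks, 36 of them in Zfp978 and 29 in Zfp993. In mouse embryonic stem cells, deletion of this cluster is known to release endogenous retroviruses from silencing. Of its peaks 88 lay inside genes, away from the start or end of any member, at a median of 11.7 CPM, against 8.53 CPM at inner peaks of other members and the 26.5 CPM of start-site peaks. Zfp987, Zfp990 and Zfp992 of this cluster had no peak. Promoter windows there were a median of 84.7% identical to the closest other member. The closest pair was Zfp600 (chr4:146156577-146156876, plus strand) and Zfp979 (chr4:147642459-147642758, minus strand), 96.3% identical, shown with capitals for the 11 letters of each that are unmatched in the alignment.
Zfp600: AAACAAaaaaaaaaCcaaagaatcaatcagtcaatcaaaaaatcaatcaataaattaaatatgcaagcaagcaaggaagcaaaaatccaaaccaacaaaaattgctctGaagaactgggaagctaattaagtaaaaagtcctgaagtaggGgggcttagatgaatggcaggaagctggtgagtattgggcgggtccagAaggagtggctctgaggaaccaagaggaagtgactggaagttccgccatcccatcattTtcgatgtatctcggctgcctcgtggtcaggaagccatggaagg
Zfp979: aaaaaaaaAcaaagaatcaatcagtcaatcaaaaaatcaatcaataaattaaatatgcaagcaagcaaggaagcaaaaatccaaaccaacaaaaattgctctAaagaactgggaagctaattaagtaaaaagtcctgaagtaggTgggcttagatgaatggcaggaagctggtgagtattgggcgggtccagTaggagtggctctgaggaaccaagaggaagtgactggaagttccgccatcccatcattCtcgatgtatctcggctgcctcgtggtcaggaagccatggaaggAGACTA

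No member as a whole passed the test for ageing. In aged against young cells, 0 of 157 gene sums (the counts of all peaks of a gene, added) passed edgeR's quasi-likelihood test at an adjusted p under 0.05, where 1.85% of all 15050 genes did (1.26% higher). DESeq2 called 0 as well, where it called 3.65% of all genes. At an unadjusted p under 0.05, 20 members passed (8 higher and 12 lower), where 24.7% of all genes did. The median log2 fold change of members was -0.10, and that of all genes -0.16, which moved to 0.05 and -0.01 when scaled over gene sums alone. The groups did not overlap in 6 members (3 higher and 3 lower), or 3.82%, against 5.99% of all genes.

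Members nearest to a call were Zfp788 (log2 0.51 ± 0.16 SE, edgeR adjusted p = 0.0874) and Zfp658 (log2 -0.77 ± 0.26 SE, edgeR adjusted p = 0.101). Zfp788 held 65.8, 79.7, 89.1, 92.4 and 61.9 CPM in aged 1 to 5 and 42.2, 61.9, 61.0 and 59.0 CPM in young 1 to 4. The groups did not overlap, although aged 5 and young 2 were nearly level. Zfp788 passed without aged 5 (edgeR adjusted p = 0.0352) or young 4 (0.0445). Zfp622, which takes part in late maturation of the large ribosomal subunit, had 38.7 ± 12.4 CPM in aged (SD, n = 5) and 57.5 ± 4.6 CPM in young cells (SD, n = 4; log2 -0.57, edgeR adjusted p = 0.110). Zfp784, Zfp810, Zfp846, Zfp879 and Zfp688 had log2 fold changes of -0.57 to -0.45 and Zfp972 and Zfp948 of 0.78 and 0.74, with edgeR adjusted p of 0.107 to 0.124. Without aged 5, 4 gene sums passed, and without young 4, 3 did. Shares over all genes in these fits are not given here.

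Single sites inside 4 members were more open in aged cells. Of 343 member peaks tested, 4 were called and all were higher, against 5.72% of all peaks called, 4.45% higher and 1.26% lower. At an unadjusted p under 0.05, 18 of 343 member peaks were higher and 24 lower, where 12.8% of all peaks were higher and 9.5% lower. None of the 134 start-site peaks was called. The groups did not overlap in 13 member peaks (9 higher and 4 lower), or 3.79%, against 6.07% of all peaks. The strongest fold was at an inner peak of Zfp746 (chromosome 6, 48070482 to 48071181). Zfp746 encodes PARIS, a repressor of Ppargc1a that the ubiquitin ligase parkin targets. This peak held 10.4, 12.9, 7.52, 3.42 and 5.34 CPM in aged 1 to 5 and 3.11, 2.75, 2.84 and 1.93 CPM in young 1 to 4, 2.85-fold higher (log2 1.51 ± 0.42 SE, edgeR adjusted p = 0.0249). Every aged library was above every young one, at a depth of 13.1 counts per library. The other 3 were in Zfp704 (chromosome 3, 9573523 to 9574222; 1.89-fold, edgeR adjusted p = 0.0163), Zfp787 (chromosome 7, 6146644 to 6147343; 2.28-fold, 0.0327) and Zfp710 (chromosome 7, 80043958 to 80044657; 1.93-fold, 0.0485). The Zfp787 peak was higher in batches 1 and 2 (log2 1.47 and 1.63) and lower in batch 3 (-0.23), where young 4 held 10.6 CPM and aged 5 held 8.91. All 4 calls rested on few libraries. That of Zfp704 ended without aged 3, young 1 or young 3 (edgeR adjusted p of 0.0627 to 0.116) and that of Zfp746 without aged 1, 2 or 3 or young 1 or 2 (0.0569 to 0.128). That of Zfp787 ended without aged Ri 5, aged 1, 2 or 3 or young 1, 2 or 3 (edgeR adjusted p of 0.0518 to 0.196), and that of Zfp710 without any 1 library but aged Ri 1, aged Ri 3, aged 5 and young 4 (0.0506 to 0.326). The number called was 0 without aged 3 or young 1, 1 without aged 1, aged 2, young 2 or young 3, 2 without aged Ri 5, 7 without aged 5 and 16 without young 4. Shares over all peaks in these fits are not given here. Adding the gene-end share of each library to the model left 0 member peaks called, where 144 of all 56235 peaks were called higher and 1 lower.

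No member passed the unpaired test for Rhosin. In aged Ri against aged cells, 0 of 157 gene sums passed in edgeR, where 0.0133% of all genes did. DESeq2 called 0 of them, against 0.0598% of all genes. At an unadjusted p under 0.05, 2 members were higher and 13 lower, against 3.88% and 2.49% of all genes, and 9 of the 13 belonged to the chromosome 4 cluster. In that cluster, every peak of Zfp981, Zfp988 and Zfp991 was also taken by Zfp978 or Zfp993, so its genes are not independent. The cluster had a median log2 fold change of -0.55, with 11 of its 12 genes below 0, against -0.05 in the other 145 members and -0.01 in all genes. Of its 98 tested peaks 95 were below 0 and 42 were lower at an unadjusted p under 0.05, against 4.61% of all peaks, and 0 of 343 member peaks were called in edgeR, against 0.446% of all (0.0711% lower). DESeq2 called 0 member peaks as well, against 0.409% of all peaks. In edgeR, 50 member peaks (5 higher and 45 lower) had an unadjusted p under 0.05, against 10.2% of all peaks (5.61% higher). The groups did not overlap in 1 gene sum, lower in aged Ri, against 0.91% of all genes, and in 4 peaks, 1 higher and 3 lower, against 1.56% of all peaks.

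Within the cluster, Zfp979 had the smallest p. Its gene sum held 70.8, 97.9, 27.4, 37.4 and 32.7 CPM in aged Ri 1 to 5 and 115, 136, 54.1, 58.9 and 54.3 CPM in aged 1 to 5, 1.62-fold lower (log2 -0.70 ± 0.25 SE, edgeR adjusted p = 0.591). Each aged Ri library was below the aged library of its number, while the groups overlapped. Zfp600 held 138, 162, 42.9, 78.4 and 60.2 CPM in aged Ri 1 to 5 and 225, 243, 89.9, 98.5 and 90.4 CPM in aged 1 to 5 (log2 -0.64 ± 0.28 SE, edgeR adjusted p = 0.732). All 7 peaks of Zfp991 (log2 -0.48) and the only peak of Zfp988 are also peaks of Zfp978 (-0.55). All 3 peaks of Zfp981 are also peaks of Zfp993. The values of these genes are not independent. Zfp980, Zfp982, Zfp984, Zfp985 and Zfp993 had log2 fold changes of -0.73 to -0.48 (edgeR adjusted p of 0.606 to 0.705). Zfp933, at the end of the run with 1 peak, was at 0.05.

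Aged Ri and aged libraries of 1 number varied together, so the comparison was also fitted on these 10 libraries with the number as a block. The labels do not say that a number marks shared animals, and with batch means removed the correlation was under 0.1 in 3 of the 5 pairs. Batches held few libraries, so removing their means can itself lower a correlation, and this check does not decide the pairing. In that paired fit 3 members fell, against 0.0405% of all genes: Zfp993 (log2 -0.59, edgeR adjusted p = 0.0389), Zfp978 (-0.55, 0.0427) and Zfp979 (-0.70, 0.0494). All 3 lie in the chromosome 4 cluster. Without the block, the same 10 libraries gave 0 calls among the genes. Of 336 member peaks 26 were called with the block, 2 higher and 24 lower, against 2.89% and 1.53% of all peaks, and all 24 lower ones lay in the cluster. By pair, the median log2 difference of the 12 cluster genes was -0.54, -0.66, -0.81, -0.19 and -0.53 in pairs 1 to 5. Of these genes, some of which share all their peaks, 12, 11, 11, 7 and 12 were lower in aged Ri. For the other 145 members the median difference was -0.31, 0.12, -0.04, 0.06 and -0.07.

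The cluster also varied widely among libraries of the same group, and the deeper libraries were often, but not always, the lower ones. Its mean per peak was 14.1, 14.8, 5.91, 8.86 and 7.87 CPM in aged Ri 1 to 5, 21.4, 23.6, 10.1, 10.5 and 11.02 CPM in aged 1 to 5, and 10.8, 16.9, 21.3 and 10.9 CPM in young 1 to 4. The highest library was 3.99 times the lowest, against 1.44 to 1.95 times for the other 7 clusters and 1.51 times for members in no cluster. The library with the fewest counts, young 3, was among the highest, and that with the most, aged Ri 3, was the lowest. Level also went with sequencing batch in the aged groups. Libraries 1 and 2 of aged and of aged Ri, all from batch 1, lay above those of batches 2 and 3. Young 1, the young library of batch 1, was the lowest young library. Aged 4 and aged 2 had nearly the same depth, 1498512 and 1566102 counts, and differed in level, at 10.5 and 23.6 CPM. They came from batches 2 and 1. The 104 peaks of other genes or between genes in the same stretch averaged 9.67 ± 3.51 CPM in aged Ri (SD, n = 5), 14.3 ± 6.5 in aged (SD, n = 5) and 14.5 ± 5.3 in young cells (SD, n = 4), so the difference was not confined to peaks of the Zfp genes. With the library total as a covariate the median of the cluster was -0.40 in place of -0.55, with 11 of 12 genes below 0. In that fit 0 members were called, where 1 of all 15050 genes was called higher and 0 lower. In pairs 1, 3 and 4 the aged Ri library was the deeper, with 1617946 against 1153199, 3176246 against 2705576 and 2938018 against 1498512 counts. In pair 2 it was the shallower, with 1255878 against 1566102 counts, and in pair 5 the totals were 2403850 in aged Ri and 2401110 in aged. The part of depth in the result, and of batch in the spread among libraries, was not tested beyond these values.

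**Figure D3:**
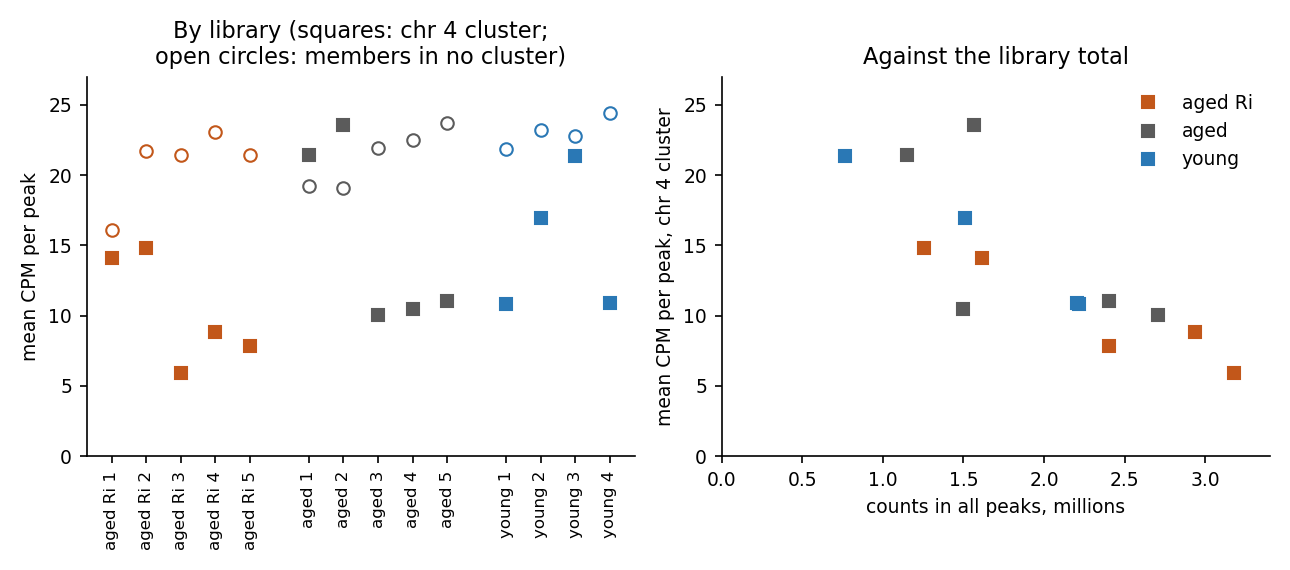
Left, mean CPM per peak in each of the 14 libraries (5 aged Ri, 5 aged, 4 young) for the 99 peaks of the chromosome 4 cluster (squares) and the 187 peaks of members in no cluster (open circles). Right, the cluster's mean CPM per peak against the counts of each library in all peaks; the cluster ranges from 5.91 CPM (aged Ri 3) to 23.6 CPM (aged 2), and aged 4, at 1498512 counts, lies as low as the deeper aged libraries.

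Compared with young cells, aged Ri cells had 6 changed members, 2 higher and 4 lower. This was 3.82% of 157 gene sums, against 7.5% of all genes (edgeR). At an unadjusted p under 0.05, 36 members passed, 5 higher and 31 lower, against 29.6% of all genes (21.1% lower). The median log2 fold change was -0.15 in members and -0.17 in all genes. The groups did not overlap in 10 members, all lower in aged Ri, or 6.37%, against 8.32% of all genes. Since the young libraries serve here and in the ageing comparison, and the aged Ri libraries in both tests of Rhosin, the values of the comparisons are not independent.

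Zfp948 on chromosome 17, between 21565816 and 21589324, was called higher, by 1.93-fold (log2 0.95 ± 0.26 SE, edgeR adjusted p = 0.0327). It held 17.2, 12.8, 25.2, 17.98 and 16.6 CPM in aged Ri 1 to 5 and 12.9, 11.7, 8.52 and 4.35 CPM in young 1 to 4, and only aged Ri 2 lay below a young library. In aged cells it averaged 16.2 ± 2.8 CPM (SD, n = 5), against 9.36 ± 3.81 CPM in young cells (SD, n = 4; log2 0.74, edgeR adjusted p = 0.114). Its sum is the start-site peak whose promoter is shown above. Zfp960 on the same chromosome, between 17064103 and 17089631, was higher by 2.07-fold (log2 1.05 ± 0.31 SE, edgeR adjusted p = 0.0423). It held 12.5, 22.1, 23.9, 10.8 and 13.7 CPM in aged Ri 1 to 5 and 6.22, 6.87, 12.8 and 8.22 CPM in young 1 to 4, with overlap at young 3.

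Zfp688 (chromosome 7, 127418963 to 127423241) fell 1.64-fold (log2 -0.71 ± 0.18 SE, edgeR adjusted p = 0.0254). It held 23.4, 37.5, 30.3, 46.0 and 42.0 CPM in aged Ri 1 to 5 and 45.7, 58.4, 79.5 and 65.3 CPM in young 1 to 4, and only aged Ri 4 reached the lowest young library. Aged cells lay between, at 41.9 ± 11.5 CPM (SD, n = 5; log2 -0.48 against young, edgeR adjusted p = 0.124). Zfp846 (chromosome 9, 20581299 to 20605404) fell 1.69-fold (log2 -0.76 ± 0.20 SE, edgeR adjusted p = 0.0297). Its groups did not overlap, with 15.4 ± 4.5 CPM in aged Ri (SD, n = 5) and 26.8 ± 4.8 CPM in young cells (SD, n = 4). Zfp879 (chromosome 11, 50828994 to 50841587) fell 1.57-fold (log2 -0.65 ± 0.19 SE, edgeR adjusted p = 0.0423), with 15.6, 22.1, 16.1, 22.3 and 19.8 CPM in aged Ri 1 to 5 and 32.9, 28.2, 24.1 and 31.9 CPM in young 1 to 4. All aged Ri libraries were below all young ones. The fourth, Zfp980 of the chromosome 4 cluster (145670697 to 145704437), fell 2.00-fold (log2 SE 0.30, edgeR adjusted p = 0.0461). It held 79.1, 77.5, 24.9, 47.5 and 29.5 CPM in aged Ri 1 to 5 and 62.2, 106, 128 and 49.3 CPM in young 1 to 4, and the groups overlapped. It was higher in batch 1 (log2 0.33) and lower in batches 2 and 3 (-1.73 and -0.72), and with the library total as a covariate it was at -0.54 (edgeR adjusted p = 0.235).

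**Figure D4:**
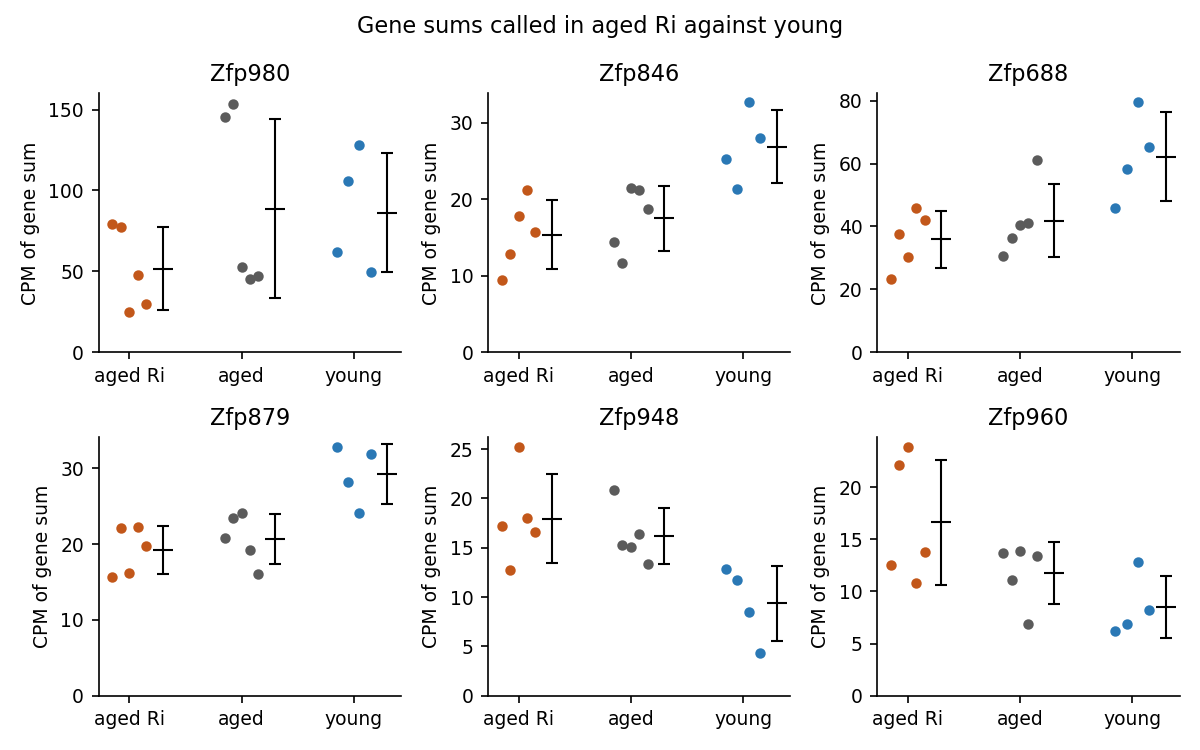
CPM of the gene sum of the 6 members called in aged Ri against young cells, with 1 point per library (5 aged Ri, 5 aged, 4 young) and the group mean ± SD beside the points. Zfp948 and Zfp960 average 17.9 and 16.6 CPM in aged Ri and 9.36 and 8.52 CPM in young cells, and in the other 4 genes the aged Ri mean is below the young mean.

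Each of these 6 calls ended without several single libraries. Without aged Ri 3 or young 3 none of the 157 was called. The call of Zfp948 ended also without aged Ri 5, young 2 or young 4 (edgeR adjusted p of 0.0649 to 0.112), and that of Zfp960 without aged 1, aged 2, young 1, young 2 or young 4 (0.0526 to 0.183). That of Zfp688 ended also without young 1 or 2 (edgeR adjusted p of 0.0536 to 0.0917), and that of Zfp846 without aged Ri 1, aged Ri 5 or young 1 (0.0563 to 0.184). Zfp879 lost its call without any 1 library but aged Ri 2, aged Ri 4, aged 3 and aged 5 (edgeR adjusted p of 0.0523 to 0.163), and Zfp980 without any 1 library but aged 4, young 1 and young 4 (0.0549 to 0.177). The number called was 18 without aged Ri 2, 15 without aged Ri 4, 11 without young 1, 3 without aged Ri 1, aged 1 or aged 2, 2 without aged Ri 5 and 1 without young 2. Shares over all genes in these fits are not given here. Adding the gene-end share or the library total to the model left 0 called. Of all 15050 genes, 58 were then called higher and 4 lower with the share, and 137 and 68 with the total. With RLE size factors 12 were called, 2 higher and 10 lower, where 498 of all genes were higher and 875 lower. Scaled over gene sums alone 6 were called, 4 higher and 2 lower, where 1162 of all genes were higher and 359 lower.

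Members just outside the threshold were Zfp985 (log2 -0.82), Zfp771 (-0.57), Zfp622 (-0.63) and Zfp706 (-0.64), with edgeR adjusted p of 0.0505 to 0.0603. Zfp706, which in mouse embryonic stem cells takes part in the exit from self-renewal, held 26.6, 63.0, 45.8, 73.0 and 66.3 CPM in aged Ri 1 to 5 and 73.7, 83.8, 109 and 87.5 CPM in young 1 to 4. All aged Ri libraries were below all young ones, by a narrow margin at aged Ri 4.

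**Figure D5:**
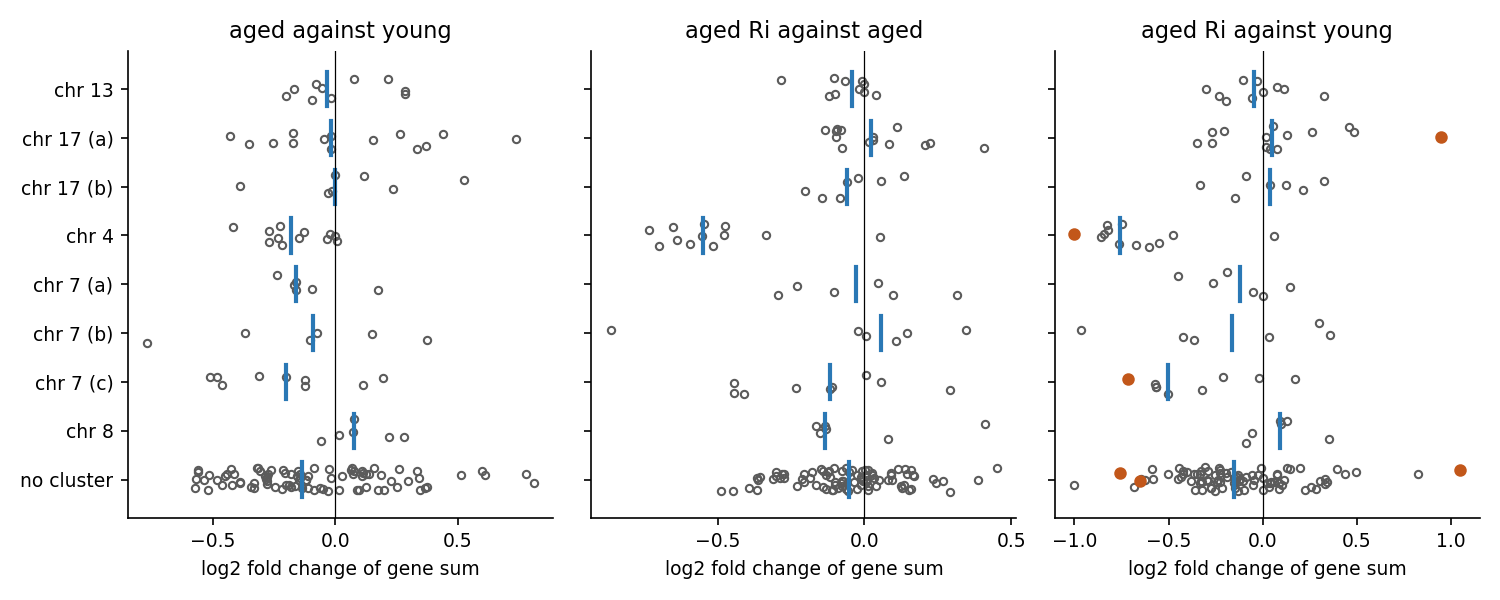
Log2 fold change of each member's gene sum in the 3 comparisons, by genomic cluster (letters a to c number clusters on 1 chromosome) and for members in no cluster; open circles are genes, filled circles those with an edgeR adjusted p under 0.05, and bars medians. Filled circles appear only in aged Ri against young, and in aged Ri against aged the chromosome 4 cluster has a median of -0.55.

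At single peaks, aged Ri cells differed from young cells at 25 of 343 member peaks, 8 higher and 17 lower, against 11.5% of all peaks. All peaks called higher made up 7.9% and those called lower 3.56%. Start-site peaks gave 1 higher (Zfp948) and 5 lower calls, and 8 of the 17 lower calls lay in the chromosome 4 cluster. The groups did not overlap in 15 member peaks, or 4.37%, against 8.85% of all peaks.

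Zfp746, Zfp710, Zfp697 and Zfp608 each held called peaks of both directions. At Zfp746 the inner peak that was higher in aged cells held 6.77, 5.96, 9.68, 8.63 and 8.09 CPM in aged Ri 1 to 5 and 3.11, 2.75, 2.84 and 1.93 CPM in young 1 to 4, 3.01-fold higher (log2 1.59 ± 0.41 SE, edgeR adjusted p = 0.00937). Its start-site peak (48086105 to 48086804) held 16.1, 26.4, 17.4, 31.3 and 39.6 CPM in aged Ri 1 to 5 and 42.6, 39.2, 61.0 and 68.2 CPM in young 1 to 4, 1.93-fold lower (log2 -0.95 ± 0.24 SE, edgeR adjusted p = 0.00859), with overlap at aged Ri 5 alone. In aged cells the start site was at 31.5 ± 15.4 CPM (SD, n = 5; log2 -0.70 against young, edgeR adjusted p = 0.0728). The sum over the 4 peaks of Zfp746 was not called, with 19.9 ± 3.4, 22.8 ± 3.2 and 23.6 ± 1.7 CPM per peak in aged Ri, aged and young cells (SD).

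At Zfp608, which represses Rag1 and Rag2 in mouse thymocytes, an inner peak (chromosome 18, 54921597 to 54922296) held 16.7, 22.1, 23.6, 10.4 and 7.28 CPM in aged Ri 1 to 5 and 4.89, 5.50, 2.84 and 4.35 CPM in young 1 to 4. It was 3.11-fold higher (log2 1.64 ± 0.38 SE, edgeR adjusted p = 0.00406), the smallest p of any member peak in this comparison, and all aged Ri libraries were above all young ones. Another of its 16 peaks, at 54937584, was 1.12 lower on the log2 scale (edgeR adjusted p = 0.0406). At Zfp710 the inner peak was 1.88-fold higher (edgeR adjusted p = 0.0370) and the start-site peak at 80024728 was at a log2 of -0.71 (0.0450). At Zfp697 one inner peak (98410572) was 1.90-fold higher (edgeR adjusted p = 0.0401) and another (98427397) 1.80-fold lower (0.0150). The first had 15.1 ± 6.1 CPM in aged Ri, 7.22 ± 1.52 in aged and 8.58 ± 3.05 in young cells (SD), and was at a log2 of 1.05 against aged cells (edgeR adjusted p = 0.0790).

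Further calls were higher inside Zfp704 (1.89-fold) and Zfp827 (1.90-fold), whose human counterpart brings the NuRD complex to telomeres, and lower inside Zfp879, Zfp978, Zfp982 and Zfp993. The inner peak of Zfp879 (50835596 to 50836295) held 2.60, 3.41, 0.323, 3.96 and 3.23 CPM in aged Ri 1 to 5 and 13.8, 9.62, 11.4 and 1.93 CPM in young 1 to 4. It was 3.29-fold lower (edgeR adjusted p = 0.0129) at only 8.57 counts per library, and young 4 lay below most aged Ri libraries. A peak of Zfp978 at 147215131 (log2 -1.46) had overlapping groups, with log2 differences of -0.08, -2.43 and -0.92 in batches 1 to 3. With no batch term it was not called (edgeR adjusted p = 0.175). This peak, both named peaks of Zfp746 and that of Zfp608 at 54921597 kept their calls with each of the 14 libraries left out. The inner peak of Zfp879 kept its call in the 8 of these fits that held it, and fell below the filter on low counts in the others, those without aged Ri 3 and young 1 among them. The other calls ended without at least 1 of them: the start-site peaks of Zfp688 and Zfp948 and the gene-end peak of Zfp960 each without 4 (edgeR adjusted p of 0.0511 to 0.145), Zfp704 without aged Ri 3 (edgeR adjusted p = 0.0531), the lower Zfp697 peak without aged Ri 3 (0.0606), the second Zfp978 peak, at 147196114, without young 2 (0.0664), and Zfp982 without aged Ri 3 or young 2 (0.0587 and 0.0696). Zfp993 lost its call without aged Ri 3 or young 2 (edgeR adjusted p of 0.0624 and 0.162) and Zfp827 without aged Ri 1, aged Ri 3 or young 1, 2 or 3 (0.0539 to 0.144). Zfp710 lost its inner call without aged Ri 1, 3 or 5 or young 1 or 3 (edgeR adjusted p of 0.0541 to 0.231), and the higher Zfp697 peak without aged Ri 1, 3 or 5 or any young library (0.0586 to 0.139). Without aged Ri 3, 5 of the 343 member peaks were called, without young 1, 71, without young 2, 11, and without young 3, 13. Shares over all peaks in these fits are not given here. Adding the gene-end share to the model left 1 member peak called, and 0 of the 16 named for this comparison. Of all 56235 peaks, 541 were then called higher and 18 lower.

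The genes of the machinery that KRAB proteins recruit were read from a list of 30, all with a peak. In aged against young cells 0 passed, 12 were lower and 0 higher at an unadjusted p under 0.05, where 18.1% of all genes were lower and 6.6% higher, and 28 of 30 were below 0 (93.3%, against 69.2% of all genes), with a median log2 of -0.31. That median was -0.16 with TMM over gene sums and 0.07, with 9 of 30 below 0, when the gene-end share was added to the model. DESeq2 called 2 lower, where it called 1.95% of all genes lower. Trim28, the co-repressor itself, was at -0.50 (edgeR adjusted p = 0.146) and Setdb1, its H3K9 methyltransferase, at -0.07 (0.841). In aged Ri against aged cells 0 passed in edgeR or DESeq2, 0 reached an unadjusted p under 0.05, and the median was -0.06. In aged Ri against young cells 4 of 30 fell, or 13.3%, where 4.14% of all genes fell: Wiz, a partner of G9a (log2 -0.77), Dnmt3b, a de novo DNA methyltransferase (-0.85), Mta2, a NuRD subunit (-0.71), and Sumo2, a modifier protein (-0.77), with edgeR adjusted p of 0.0270 to 0.0423. When the gene-end share was added to the model, 0 of them passed and the median was 0.04, above 0. Of all 15050 genes, 58 were then called higher and 4 lower.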

How the data were processed

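ATAC-seq read counts per peak were deposited by the authors as whole numbers with no normalization, 1 column per library, for one set of peaks shared by the 14 libraries (mm10). Per the submitters' processing notes, featureCounts, SAMtools 1.14 and R 4.2.0 were used. The aligner, the peak caller, the treatment of duplicates and of reads that map to several places, and any shift for Tn5 are not given in the sources used here. Per the labels' protocols, cells were lysed in 0.15% NP40 and libraries made with Nextera XT primers.

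From these counts, peaks were joined to RefSeq genes of mm10 by coordinates (gene span and 1 kb on either side). Peaks (56235 kept by filterByExpr) and gene sums (15050 kept) were tested with edgeR 4.0.16's quasi-likelihood test in R 4.3.3, with TMM factors taken from peaks, all 14 libraries in 1 fit, group and sequencing batch as terms, robust estimation and Benjamini-Hochberg adjustment over all features. An adjusted p under 0.05 was called. CPM use the TMM-scaled library size, and log values of single libraries add a prior count of 2. Depth limits precision: totals ran from 765533 to 3176246 counts. On data simulated for aged against young, the test recovered 86% and 74% of gene sums changed by a log2 of 1 and -1 over 15050 genes, and 26% and 14% of such peaks over 56235 peaks. The simulated counts had no batch effect, no difference in gene-end share and a spread set by level alone, and aged Ri was changed as aged was. Recovery in the real libraries may therefore be lower. P-values measure the spread between these libraries.

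For aged Ri and aged libraries, those sharing a number departed from their group means in the same way (correlation over 25903 peaks of 0.36, 0.14, 0.65, 0.28 and 0.54). This meets the criterion of over 0.1 in every pair, although in pair 4 a library of another number correlated higher, at 0.29. These 2 groups were therefore also fitted as paired, while the main fit was unpaired. With batch means removed the values were 0.08, -0.05, 0.47, 0.22 and -0.23, and in 4 of 5 pairs a library of another number correlated higher. Batches held few libraries, with 1 of each group in batch 3, so removing their means can itself lower these values. The labels do not state shared animals. Correlations of young libraries with those of their number (-0.28 to 0.07, batch means kept) do not meet the criterion. Alternatives were DESeq2 1.42.0, RLE factors, TMM over gene sums, loess offsets, the gene-end share as a covariate, no batch term, the replicate number as a block, only the 2 groups compared, each library left out, and gene windows of the span alone, of 2 kb, or without shared peaks. The library total as a covariate and the counts without the chromosome 4 cluster were added after seeing the data. Genes named per comparison were those called (up to 12 per direction), filled to 10 by p, with the called peaks (up to 8 per direction) of smallest p, the 10 highest and 5 lowest levels and members of known role. Other called peaks at Zfp608 and Zfp710, and the values of Zfp706, were named after their values were seen. Members and lists were chosen with earlier results of these data known. Protein domains were not used here. Python 3.11.15, numpy 2.4.6, pandas 2.3.3 and matplotlib 3.10.9 made the summaries and figures.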

Additional observations from a re-analysis of the deposited data

Results flagged for a closer look

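Of 120 groups of 4 or 5 libraries examined for a single library far from the others (Dixon's criterion at 95%), 5 were flagged, where chance flags about 1 in 20 groups. In young 1 the gene sum of Zfp622 was 64.4 CPM, against 55.0 to 55.4 CPM in the other young libraries, and that of Zfp788 was 42.2 CPM, against 59.0 to 61.9 CPM. In young 4 the inner peak of Zfp787 held 10.6 CPM, against 3.44 to 4.26 CPM in the other young libraries. In aged Ri 3 the inner peak of Zfp827 held 29.7 CPM, against 17.0 to 20.3 CPM in the other aged Ri libraries. In young 2 the peak of Zfp993 at 146653776 held 22.7 CPM, against 11.4 to 11.99 CPM in the other young libraries.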

How the results depend on the processing

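Of 1266 recomputed values of 50 named genes and peaks, 1011 kept direction and side of the threshold, 202 lost a call, 53 gained one and none reversed. No adjusted p was given under DESeq2 for 3 results. Many of the 50 were never called and kept their side by staying uncalled, while all 202 losses fell on called results. In aged Ri against young cells, calls were kept in 7 of 27 settings for the gene sum of Zfp980 and in 22 of 23 for the Zfp608 peak at 54921597. In aged against young cells the number of genes called, 0, was 2 with only the 2 groups, with TMM over gene sums and with loess offsets, and 0 to 4 with each library left out. Of all 15050 genes, 581 were called higher and 91 lower with TMM over gene sums, and 533 and 121 with loess offsets. The 4 peaks became 2 with DESeq2, 0 with the gene-end share, 1 with no batch term and 0 to 16 with each library left out. DESeq2 called 5.06% of all peaks, and with the gene-end share 144 of all 56235 peaks were higher and 1 lower. The median log2 of -0.10 became 0.0547 with TMM over gene sums, 0.0446 with the gene-end share, 0.0587 with loess offsets and -0.14 to -0.06 with each library left out. In aged Ri against aged cells the genes called stayed at 0 with each library left out (0 to 0), and the median at -0.11 to -0.00. The 0 peaks became 5 with only the 2 groups, 1 with the 2 kb window and 0 to 3 with each library left out. In aged Ri against young cells the 6 genes became 0 with only the 2 groups, the gene-end share, the library total or no batch term, 13 with DESeq2, 12 with RLE factors and 0 to 18 with each library left out. DESeq2 called 10.1% of all genes, and RLE factors gave 498 of 15050 higher and 875 lower. The 25 peaks became 1 with the gene-end share, 9 with the library total, 7 with no batch term and 5 to 71 with each library left out. Of all 56235 peaks, 541 were higher and 18 lower with the gene-end share, and 2679 and 920 with the library total. The median of -0.15 became 0.0171 with TMM over gene sums, -0.0231 with the gene-end share, -0.00313 with loess offsets and -0.21 to -0.10 with each library left out. Shares over all genes and peaks with a library left out are not given here. The cause of these changes was not tested.

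With the replicate number as a block over all 14 libraries, 19 member genes and 35 peaks were called in aged against young (25.2% of all genes and 19.2% of all peaks), 9 peaks in aged Ri against aged (1.90% of all), and 26 genes and 43 peaks in aged Ri against young cells (29.2% and 23.2% of all), whose median became -0.27. Young libraries share only a number with the others. With the block over the paired aged Ri and aged libraries alone, 3 genes and 26 peaks were called. Depth limits what single peaks can show, and several of those called rest on under 20 counts per library.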

Other observations

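The chromosome 4 cluster was not the only stretch dense in peaks whose level varied between libraries. The megabase from 20 Mb on chromosome 8 held 130 peaks, against a median of 19 per megabase with a peak, at a mean of 14.5 CPM in aged Ri, 20.7 CPM in aged and 25.9 CPM in young libraries, and its highest library was 5.05 times its lowest. The megabase from 85 Mb on chromosome 1 held 128 peaks at 10.1, 14.1 and 14.97 CPM in aged Ri, aged and young libraries, with a ratio of 3.84. The megabase from 80 Mb on chromosome 10 held 110 peaks at 34.9, 34.8 and 40.5 CPM in aged Ri, aged and young libraries, and its highest library was 1.88 times its lowest. The megabases were chosen for their number of peaks, and no test was made of them.

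The 9 members of the run on chromosome 7 from 127242996 to 127885996, which includes Zfp688, had a median log2 fold change of -0.51 in aged Ri against young cells, with 6 of 9 lower at an unadjusted p under 0.05 and 1 called lower. Zfp668 and Zfp646 of this run have the same peak and no other, so their values are the same and not independent. All genes had a median of -0.17, with 21.1% lower at an unadjusted p under 0.05 and 4.14% called lower, and the run was singled out after its values were seen. Their peaks averaged 30.6 ± 5.5 CPM in aged Ri (SD, n = 5), 32.9 ± 5.3 CPM in aged (SD, n = 5) and 41.2 ± 3.4 CPM in young cells (SD, n = 4).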
